A study of Mus musculus with 4 samples.

Results

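The genes described here are 10 circadian clock and PAR bZIP genes (Arntl, Npas2, Per1, Per2, Cry1, Dbp, Tef, Hlf, Nfil3 and Bhlhe41), chosen by symbol. They were found among the 56953 gene rows of a count table from mouse liver, and 8 of the 10 were among the 14600 genes with enough counts to test. The libraries are 2 from Ubc13 flox/flox Alb positive livers, labelled as a hepatic Ubc13 deletion, and 2 from Ubc13 flox/flox Alb negative livers, labelled WT. All 4 came from animals on a normal diet at 2 months of age, and the control livers carry the same flox alleles as the deletion livers. The labels name no Cre transgene beyond the word Alb. An albumin-driven Cre acts in hepatocytes and, through their shared precursors, can also act in bile duct cells, while blood-derived and stromal cells would keep Ubc13, the ubiquitin-conjugating enzyme encoded by Ube2n. The labels give no sampling time, sex or strain, and they do not say whether replicates came from separate animals.

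The clock runs in nearly every liver cell as a loop of transcription factors. ARNTL (also called BMAL1) pairs with CLOCK or NPAS2 on E-box DNA and switches on Per, Cry, Nr1d1, Dbp and their relatives, and the PER and CRY proteins then hold ARNTL and CLOCK back. REV-ERB proteins, encoded by Nr1d1 and Nr1d2, repress Arntl, Npas2, Clock, Nfil3 and Cry1 through a REV-ERB and ROR response element (RRE), so these genes run opposite to the E-box genes over the day. DBP, TEF and HLF are the PAR bZIP factors, which activate D-box genes of detoxification and lipid metabolism, and NFIL3 represses through the same D-box.

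The E-box, D-box and RRE letters found near these gene starts are shown first, because the genes are grouped below by textbook phase under these names. The matches do not sort the values: Cry1 held an E-box, yet its gap between the controls had the sign of the RRE-phase genes, and Dbp held none of the letters searched. Promoter windows from RefSeq (GRCm38.p6), which run from 250 bases before to 50 bases after a gene start, were found for 9 of the 10 members; Per2 had no entry. Both strands were searched for the E-box (CACGTG, in 7.15% of all 32851 windows), the E'-box (CACGTT, 4.68%), the D-box (TTANGTAA, 2.32%), the RRE core (TAGGTCA, 2.61%, or TGGGTCA, 3.98%) and the CRE of cAMP signalling (TGACGTCA, 1.79%). An E-box lay in a window of Per1, Tef, Cry1 and Bhlhe41, and an RRE core in those of Arntl and Nfil3. Each site is printed 5' to 3' on the gene's own strand, 30 bases long, with the motif in capitals; in Nfil3 the motif lies on the other strand. None of these matches overlapped another.
Arntl, RRE core, chr7:113207530-113207559, plus strand: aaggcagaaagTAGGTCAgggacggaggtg
Nfil3, RRE core, chr13:52981033-52981062, minus strand: gcgctcggaacTGACCTActaacacacatc
Cry1, E-box, chr10:85185097-85185126, minus strand: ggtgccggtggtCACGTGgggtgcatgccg
Per1, E-box, chr11:69098771-69098800, plus strand: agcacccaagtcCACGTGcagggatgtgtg
Tef, E-box of the second window, chr15:81811264-81811293, plus strand: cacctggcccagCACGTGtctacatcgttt
Bhlhe41, E-box, chr6:145865556-145865585, minus strand: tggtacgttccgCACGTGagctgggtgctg

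Cry1 also held an E'-box. Npas2, like Dbp, held none of these letters in the window, which says only that they are not in these bases. A D-box was found in no member window, but Per3, a PER protein gene outside the member list, held it at 2 places. One of them, chr4:151044805-151044834 on the minus strand, is printed for comparison with the E-box of Ciart, a repressor of CLOCK and ARNTL, whose window held 3 E-boxes.
Per3, D-box: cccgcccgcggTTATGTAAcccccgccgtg
Ciart, E-box, chr3:95882327-95882356, minus strand: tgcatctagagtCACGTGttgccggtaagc

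The 2 control livers lay apart in these genes. Over the 8 tested members the median absolute log2 gap was 0.44 between the deletion livers and 1.40 between the controls, beside 0.23 and 0.26 over all tested genes. Control replicate 1 was lower than control replicate 2 in all 4 tested RRE-phase genes and higher in 9 of 13 E-box and D-box-phase genes, Nr1d1 and Dbp first among them. Per1, Per2, Cry2 and Tspan4 were the 4 exceptions. The count ratio of Dbp to Arntl was 2.61 (95% counting interval 2.12 to 3.22) in deletion replicate 1 and 3.65 (3.07 to 4.35) in deletion replicate 2, against 78.8 (53.2 to 122) in control replicate 1 and 1.35 (1.10 to 1.65) in control replicate 2. Both deletion livers thus lay between the controls, close to control replicate 2. The ratio of Nr1d1 to Arntl gave the same order among controls, at 1.45 and 5.10 in deletion replicates 1 and 2 and at 58.4 and 0.625 in control replicates 1 and 2. Of 6 such pairs computed, 2 did not place both deletion livers between the controls. Per2 to Cry1 was at 5.08 and 2.90 in the deletion livers and 3.92 and 2.13 in the controls, and Hlf to Nfil3 at 1.40 and 1.37 in the deletion livers and 4.90 and 1.37 in the controls, where deletion replicate 2 was level with control replicate 2. Such a ratio serves only to compare libraries, since its size also depends on how each gene was counted. The intervals cover counting error only. Because the labels give no sampling time, the part of sampling time in these values was not tested. Control replicate 1 also stood apart in some markers of other cell types. The median log2 gap between control replicates 1 and 2 was 1.57 over 7 cholangiocyte markers, with Krt19 at 3.55. Over 10 stellate and fibroblast markers the median gap was 0.45, and 8 of 10 were higher in control replicate 1. Among them the gap was 2.79 for Acta2 and 1.60 for Des, but -0.01 for Dcn, 0.01 for Reln and -0.19 for Lrat. The part of these cells in the gap of the clock genes was not tested.

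**Figure D1:**
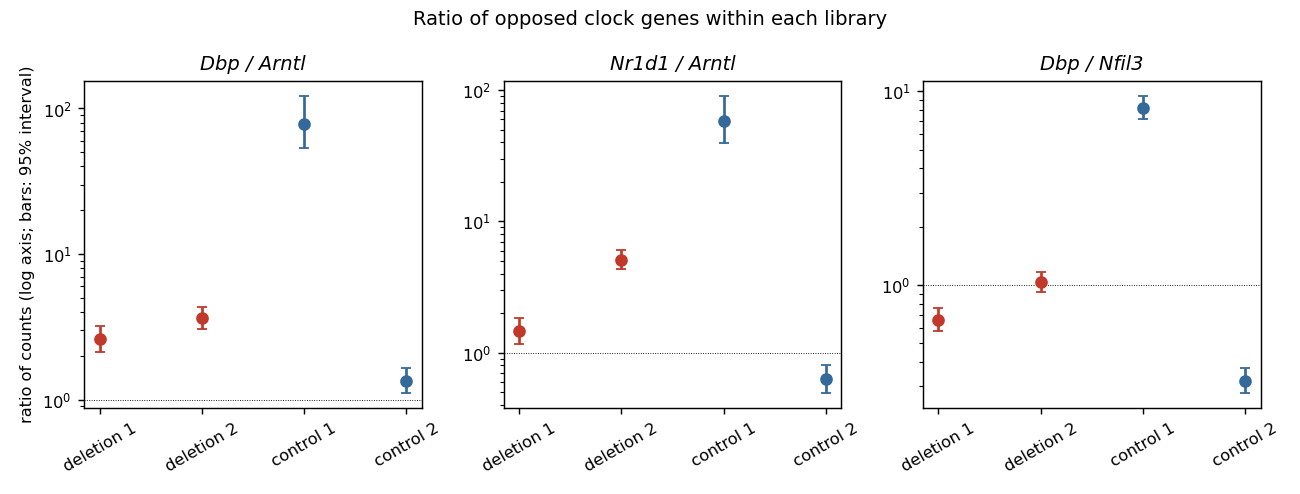
Ratio of the counts of 2 clock genes of opposed phase within each library, on a log axis, with exact 95% counting intervals, for Dbp to Arntl, Nr1d1 to Arntl and Dbp to Nfil3. Deletion libraries are red and control libraries blue; in each panel both deletion libraries lie between control replicate 1 at the top and control replicate 2 at the bottom.

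Set over the textbook phase groups, 4 RRE-phase genes were tested (Arntl, Clock, Nfil3 and Cry1) of 5 described, and 13 E-box and D-box-phase genes of 14. All 4 RRE-phase genes were higher in both deletion livers than in control replicate 1, and all 4 were lower in both than in control replicate 2. Their median log2 difference was 0.94 and 0.84 for deletion replicates 1 and 2 against control replicate 1, and -0.80 and -0.61 against control replicate 2. Over all tested genes the same 4 medians lay between -0.0001 and 0.0075. Against the mean of both controls the RRE-phase median was a log2 fold change of -0.06, with 0 called by edgeR, 0 at an unadjusted p under 0.05 and 0 by DESeq2. It was -0.71 without control replicate 1 and 0.84 without control replicate 2.

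The E-box and D-box-phase genes leaned lower in the deletion livers against either control. Their median log2 difference was -0.74 and -0.86 for deletion replicates 1 and 2 against control replicate 1, and -0.12 and -0.52 against control replicate 2. Of the 13 tested, 9 were lower in deletion replicate 1 and 13 in deletion replicate 2 than in control replicate 1; against control replicate 2 the counts were 8 and 9. Across all 4 libraries 11 of the 13 had a negative log2 fold change, with a median of -0.72 beside -0.004 over all genes tested. Of these, 1 was called lower and 0 higher by edgeR (2.16% and 4.41% of all genes). At an unadjusted p under 0.05, 6 were lower (10.5% of all genes) and 0 higher, and DESeq2 called 3 lower (4.48%). The median was -0.31 without control replicate 1 and -0.87 without control replicate 2. Over all 4 libraries the 11 tested hepatocyte markers had a median of -0.70, with all 11 negative. A lean of this size was therefore not particular to the phase genes.

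Levels are given as counts scaled to library size (CPM, with TMM scaling), and fold changes as log2 of deletion over control. By the edgeR quasi-likelihood test over all 14600 genes, adjusted by Benjamini-Hochberg, 1 of the 8 tested members was lower in the deletion livers (Hlf) and 0 were higher, where 2.16% of all genes were called lower and 4.41% higher. DESeq2 also called 1 member lower (Hlf; 4.48% of all genes) and 0 higher. At an unadjusted p under 0.05, 2 members were lower (Hlf and Tef; 10.5% of all genes) and 0 higher (14.0% of all genes). The 2 groups did not overlap for the same 2 of the 8, both lower, which was so for 27.3% of all genes. The median log2 fold change of the 8 was -0.36, with 2 positive and 6 negative.

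**Figure D2:**
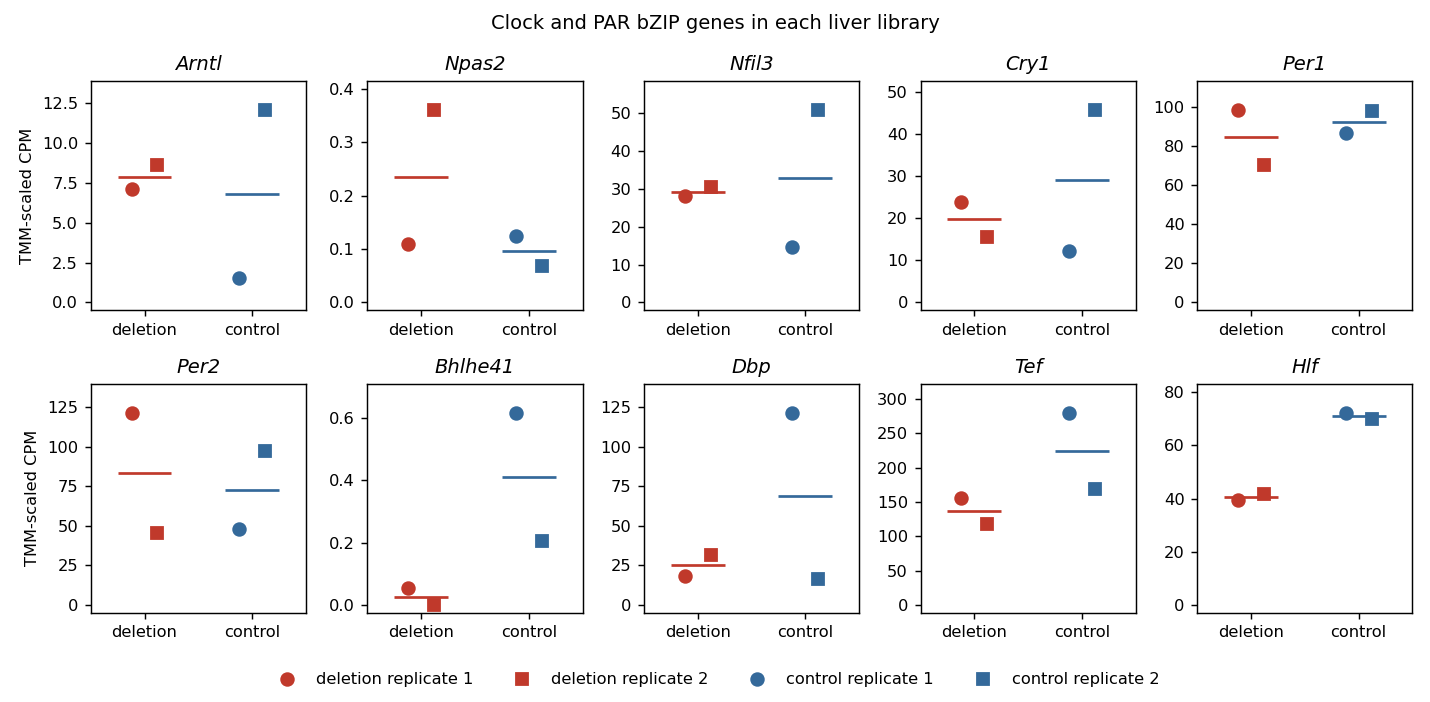
Level of each of the 10 members in every library, in TMM-scaled CPM on a linear axis; circles are replicate 1, squares replicate 2, and lines the group means. The controls stand far apart for Arntl, Nfil3, Cry1 and Dbp, while for Hlf both deletion libraries (39.3 and 41.7 CPM) lie well under both controls (72.3 and 69.9 CPM).

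Among the activators, Arntl (ENSMUSG00000055116, chr7:113207465-113314126, plus strand, GRCm38) had 7.14 and 8.65 CPM in deletion replicates 1 and 2, against 1.54 and 12.1 CPM in control replicates 1 and 2. Both deletion livers lay inside the span of the controls. The log2 fold change was 0.22 ± 0.79 (SE; adjusted p = 0.901). The controls alone differed 7.84-fold (95% counting interval 5.14 to 12.5, from 25 and 176 counts), and 99.4% of all tested genes had a smaller gap between the controls. Between the deletion livers the gap was 1.21-fold (0.957 to 1.53). Without control replicate 2 Arntl was called higher, at 2.35 (adjusted p = 0.00104), and without control replicate 1 the value was -0.62 (adjusted p = 0.207).

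Npas2 (chr1:39193731-39363236, plus strand), which can stand in for CLOCK beside ARNTL, was near the detection floor and was not tested. It had 2 and 7 counts in the deletion libraries and 2 and 1 counts in the control libraries, where 3 counts correspond to 0.154 to 0.206 CPM. The groups overlapped, and the ratio of deletion over control was 2.45 with a counting interval of 0.612 to 14.1. No difference was detectable at this depth.

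The PER and CRY genes form the negative limb. Per1 (chr11:69095217-69109960, plus strand), which glucocorticoid and cAMP signals also induce, had 98.7 and 70.6 CPM in the deletion livers and 87.0 and 98.3 CPM in the controls. The groups overlapped, with a log2 fold change of -0.13 ± 0.20 (adjusted p = 0.748). With library sizes alone as scaling it was 0.16, so that its sign depends on the scaling.

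Per2 (chr1:91415982-91459324, minus strand) differed most within the deletion group among the 8 tested members. It had 122 and 45.3 CPM in deletion replicates 1 and 2, against 47.9 and 97.6 CPM in control replicates 1 and 2. Deletion replicate 1 was 2.68-fold above deletion replicate 2 (counting interval 2.48 to 2.90), a gap larger than that of 98.2% of all tested genes. The log2 fold change of 0.20 ± 0.51 (adjusted p = 0.859) therefore sits inside the spread of both groups. It was -0.70 without deletion replicate 1 and 0.74 without deletion replicate 2.

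Cry1 (chr10:85131700-85185064, minus strand), the stronger and later of the CRY repressors, had 23.9 and 15.6 CPM in the deletion livers and 12.2 and 45.8 CPM in the controls. Both deletion livers again lay between the controls, which differed 3.75-fold (counting interval 3.19 to 4.41). The log2 fold change was -0.55 ± 0.57 (adjusted p = 0.616). Without control replicate 1 Cry1 was called lower at -1.22 (adjusted p = 0.00418), and without control replicate 2 it was 0.69 (adjusted p = 0.113).

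Bhlhe41 (DEC2; chr6:145858243-145865558, minus strand), a repressor that competes for E-boxes, had 1 and 0 counts in the deletion libraries and 10 and 3 counts in the control libraries. It was below the filter and was not tested. The groups did not overlap, and the ratio of deletion over control was 0.0629 with a counting interval of 0.00148 to 0.419. It pools 1 count in the deletion livers and 13 in the controls, and leaves out the spread between libraries. Control replicate 2 stood at the floor of 3 counts. Deletion replicate 1 over control replicate 2 alone was 0.267, with a counting interval of 0.00508 to 3.32 that includes equal levels. Gm43909 overlaps its exons on the opposite strand.

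Of the PAR bZIP factors, Hlf fell in the deletion livers and Dbp and Tef did not pass the test. Dbp (chr7:45705088-45710203, plus strand) had 18.6 and 31.6 CPM in deletion replicates 1 and 2, against 121.5 and 16.3 CPM in control replicates 1 and 2. Control replicate 1 stood apart from the other 3 libraries, and the deletion livers lay just above control replicate 2. The log2 fold change was -1.46 ± 0.82 (adjusted p = 0.34), and the controls differed 7.46-fold (counting interval 6.52 to 8.57). Without control replicate 1 the value turned to 0.62 (adjusted p = 0.212), and without control replicate 2 Dbp was called lower at -2.27 (adjusted p = 1.46e-05). Exons of Sphk2 overlap Dbp on the opposite strand, and the strand setting of the counting is not given.

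Tef (chr15:81802421-81826863, plus strand) had 156 and 117 CPM in the deletion livers and 280 and 169 CPM in the controls. Both deletion livers were below both controls, the nearest pair being deletion replicate 1 and control replicate 2. The log2 fold change was -0.72 ± 0.28 (adjusted p = 0.184; unadjusted, 0.041). It was called lower without control replicate 2 (-1.04, adjusted p = 0.00615) and stood at -0.31 without control replicate 1 (adjusted p = 0.483). An antisense gene, Gm17597, overlaps its exons.

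Hlf (ENSMUSG00000003949, chr11:90336536-90390895, minus strand) had 39.3 and 41.7 CPM in deletion replicates 1 and 2, from 715 and 810 counts, against 72.3 and 69.9 CPM in control replicates 1 and 2, from 1172 and 1017 counts. Each group was tight: the means were 40.5 ± 1.7 CPM in deletion livers and 71.1 ± 1.7 CPM in control livers (SD, n = 2 each). Hlf fell 1.76-fold (log2 fold change -0.81 ± 0.14, edgeR quasi-likelihood adjusted p = 0.0284), lower in 2 of 2 deletion livers. Its gap between controls was smaller than that of most genes, since 10.3% of tested genes had a smaller one, although Dbp and Arntl parted widely between the same controls. Passing the test favours such a small gap. The 11 tested hepatocyte markers had a median log2 fold change of -0.70, near that of Hlf, and all 11 were negative.

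The call for Hlf held without either control, at -0.79 without control replicate 1 (adjusted p = 0.0183) and -0.84 without control replicate 2 (adjusted p = 0.0116). It was lost without deletion replicate 1 (-0.78, adjusted p = 0.126) and without deletion replicate 2 (-0.86, adjusted p = 0.135), with library sizes alone as scaling (-0.52, adjusted p = 0.074), with a replicate block (-0.81, adjusted p = 0.083) and in a fit that carries each library's male RNA share (-0.72, adjusted p = 0.527). Library sizes alone moved the median of all genes by 0.29 on the log2 scale. The 250 bases before the RefSeq start of Hlf, chr11:90390918-90391167 on the minus strand, are shown because Hlf was the only member called over all 4 libraries; the capitals mark a CRE at position -9 from the start.
Hlf, 250 bases before the start: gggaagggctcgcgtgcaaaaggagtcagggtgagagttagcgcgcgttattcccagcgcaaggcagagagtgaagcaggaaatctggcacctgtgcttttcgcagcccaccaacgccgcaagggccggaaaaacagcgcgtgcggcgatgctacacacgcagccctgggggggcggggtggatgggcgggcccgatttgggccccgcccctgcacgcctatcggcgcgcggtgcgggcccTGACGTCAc

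Nfil3 (chr13:52967209-52981073, minus strand), the D-box repressor that opposes the PAR bZIP factors, had 28.1 and 30.5 CPM in the deletion livers, against 14.7 and 50.9 CPM in control replicates 1 and 2. The deletion livers differed by 1.08-fold (counting interval 0.960 to 1.22) and the controls by 3.45-fold (2.98 to 4.01). The deletion livers sat between the controls, and the log2 fold change of -0.16 ± 0.51 did not pass (adjusted p = 0.888). With library sizes alone it was 0.14. Nfil3 was called lower without control replicate 1 (-0.80, adjusted p = 0.0219) and higher without control replicate 2 (0.99, adjusted p = 0.00986).

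Most calls of single members thus depended on which control was kept. Without control replicate 1, 3 members were called lower (Cry1, Hlf and Nfil3; 4.03% of all genes) and 0 higher. Without control replicate 2, 2 members were called higher (Arntl and Nfil3; 7.63% of all genes) and 3 lower (Dbp, Hlf and Tef; 5.78% of all genes). Hlf was the 1 member called lower in both. In each of these fits the remaining control had no replicate and its spread was taken from the other groups. Without a filter on low counts, Dbp, Tef and Hlf were called lower (3 of 10 members, 4.39% of all genes tested).

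**Figure D3:**
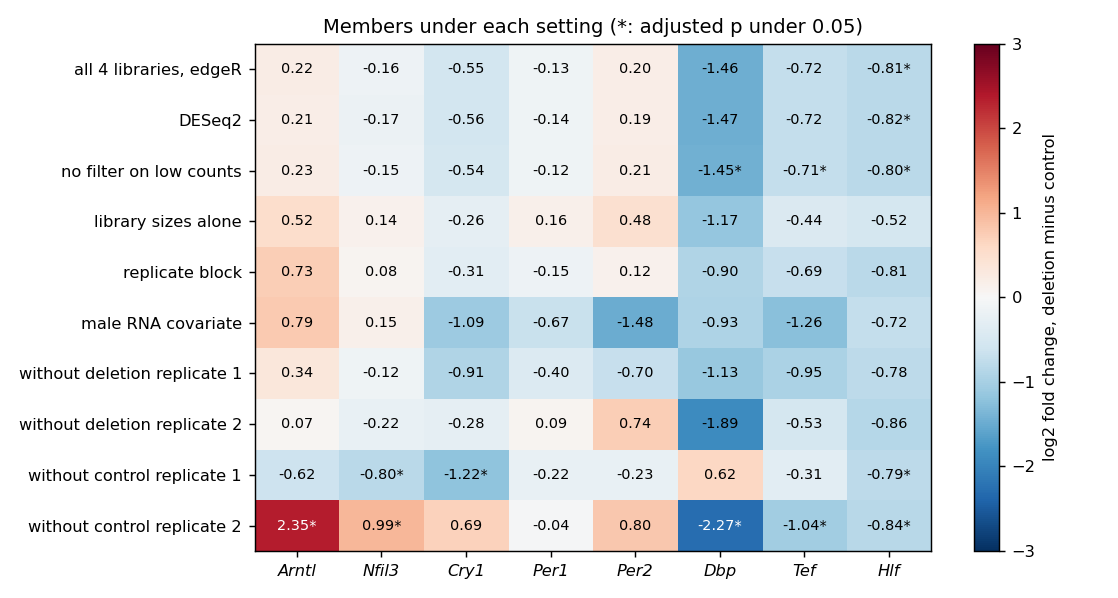
Log2 fold change, deletion minus control, of the 8 tested members (columns) in the fit of all 4 libraries and under 9 alternatives (lines), with an asterisk at an adjusted p under 0.05. Hlf stays between -0.86 and -0.52 throughout, whereas Arntl, Nfil3, Cry1, Per2 and Dbp change sign with the control left out.

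**Figure D4:**
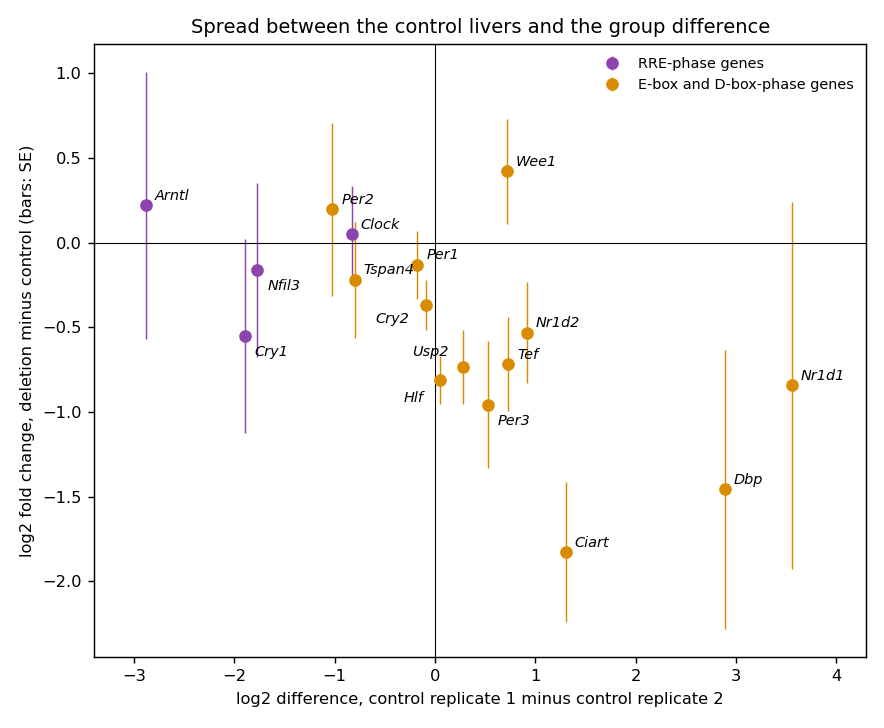
Log2 fold change, deletion minus control, with its SE (vertical axis) against the log2 difference between control replicate 1 and control replicate 2 (horizontal axis) for the tested RRE-phase genes and E-box and D-box-phase genes. The 4 RRE-phase genes lie left of 0 and Nr1d1 (3.56) and Dbp (2.89) far right of it, while Hlf lies at 0.05.

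Other clock genes were described from a list of 32, of which 31 were tested. None passed over all genes by edgeR (0 higher, 0 lower); at an unadjusted p under 0.05, 3 were higher (14.0% of all genes) and 4 lower (10.5%), and DESeq2 called 1, lower (4.48%). Their median log2 fold change was 0.0098. Ciart had 9.29 and 10.1 CPM in the deletion livers and 49.2 and 19.9 CPM in the controls, with no overlap. Its log2 fold change of -1.83 ± 0.41 did not pass (adjusted p = 0.0568), and it was the gene that DESeq2 called (adjusted p = 0.000298). It was called lower with either control left out, at -1.03 without control replicate 1 (adjusted p = 0.0106) and -2.34 without control replicate 2 (adjusted p = 2.33e-06).

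The REV-ERB gene Nr1d1 had 10.4 and 44.1 CPM in deletion replicates 1 and 2, against 90.1 and 7.56 CPM in control replicates 1 and 2, the widest gap between the controls among the clock genes named here. Both groups spanned several fold, and the groups overlapped (-0.84 ± 1.08, adjusted p = 0.695). Nr1d1 stood at 1.85 without control replicate 1 and at -1.72 without control replicate 2, so its sign depended on the control kept. Its exons overlap Thra on the opposite strand. Its relative Nr1d2 had 54.6 and 59.4 CPM in the deletion livers and 107.6 and 57.1 CPM in the controls (-0.53 ± 0.30, adjusted p = 0.334).

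Per3 had 36.6 and 16.9 CPM in the deletion livers and 61.4 and 42.5 CPM in the controls, without overlap (-0.96 ± 0.38, adjusted p = 0.188). The repressor Cry2 was at 54.7 and 49.0 CPM in the deletion livers and 64.8 and 69.2 CPM in the controls (-0.37 ± 0.15, adjusted p = 0.196). For both genes every deletion library lay below every control library, at sizes that did not pass. Of the 31 tested genes of this list, 7 were lower and 5 higher without overlap. Over all 14600 tested genes these counts were 3984 (27.3%) and 4185. Clock (0.05 ± 0.28) and the E-box repressor Bhlhe40 (0.28 ± 0.27) had log2 fold changes near 0. The ARNTL relative Arntl2 was at 3.79 and 2.73 CPM in the deletion livers and 1.60 and 0.962 CPM in the controls, higher without overlap. It had the second largest change of this list (1.33 ± 0.42, adjusted p = 0.121).

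**Figure D5:**
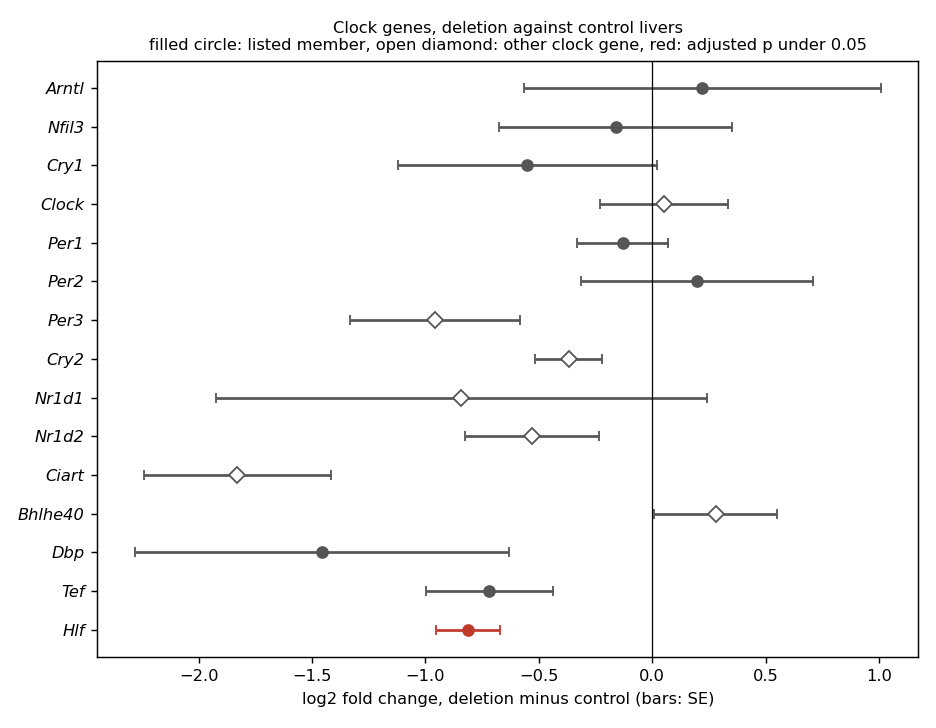
Log2 fold change, deletion minus control, with its SE for the 8 tested members (filled circles) and 7 other clock genes (open diamonds); red marks an adjusted p under 0.05. Hlf at -0.81 is the marked gene; Ciart lies lowest at -1.83, and the bars of Dbp, Nr1d1 and Arntl are the widest.

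Liver genes under clock or PAR bZIP control moved down more often than up. Of 30 listed output genes, all tested, 5 fell and 0 rose, where 2.16% of all genes fell; DESeq2 called 12 lower (4.48% of all genes) and 0 higher. The median log2 fold change was -0.71, and 27 of 30 were negative. The 11 tested hepatocyte markers had a median of -0.70, with all 11 negative and 7 called lower by DESeq2. A fall of this size was therefore not particular to the output genes. Nr1i3, the xenobiotic receptor CAR and a PAR bZIP target in mouse liver, had 12.4 and 13.6 CPM in the deletion livers and 73.2 and 55.5 CPM in the controls, a fall of 4.94-fold (-2.30 ± 0.19, adjusted p = 0.00465). Its exons overlap Tomm40l on the opposite strand. Its target Cyp2b10, at 5.99 and 13.8 CPM in the deletion livers and 43.2 and 31.3 CPM in the controls, fell 3.75-fold (-1.91 ± 0.39, adjusted p = 0.0446).

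Upp2, a uridine phosphorylase, had 123 and 179 CPM in the deletion livers and 1147 and 810 CPM in the controls (-2.70 ± 0.28, adjusted p = 0.00715). The ethanol-oxidizing Cyp2e1 fell 4.34-fold (adjusted p = 0.0213) and the gluconeogenic Pck1 fell 1.98-fold (adjusted p = 0.0487). The gaps of these 5 between the controls were 0.04 to 0.50 in log2 size. This is partly by selection, because passing the test favours a small spread within groups. Output genes with wide gaps, Elovl3 at -3.26 and Tfrc at -2.11 among them, did not pass. Nr1i3, Upp2 and Cyp2e1 kept their calls with any 1 library left out; the call of Cyp2b10 ended without deletion replicate 1 (adjusted p = 0.0517), and that of Pck1 without deletion replicate 1 (adjusted p = 0.127) or 2 (adjusted p = 0.129). With the male RNA covariate none of the 5 passed, at log2 fold changes of -2.20 (Nr1i3), -2.18 (Upp2), -3.10 (Cyp2e1), -0.75 (Cyp2b10) and -0.84 (Pck1). Library sizes alone as scaling also ended the calls of Cyp2b10 (adjusted p = 0.0586) and Pck1 (adjusted p = 0.0706), and the robust fit that of Cyp2b10 (adjusted p = 0.0695). Elovl3, a fatty acid elongase with strong daily rhythm in mouse liver, had 0.660 and 0.618 CPM in the deletion livers and 1.36 and 14.0 CPM in the controls (-3.57 ± 1.07, adjusted p = 0.11).

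Signals that set the liver clock from outside were listed as well. Of 18 glucocorticoid and feeding genes, 0 passed by edgeR in either direction; at an unadjusted p under 0.05, 5 were lower (10.5% of all genes) and 0 higher, and DESeq2 called 3, lower (4.48%). The glucocorticoid-induced Tsc22d3 had 159 and 117 CPM in the deletion livers and 225 and 411 CPM in the controls (-1.20 ± 0.32, adjusted p = 0.0808). The fasting hormone gene Fgf21 was at 0.879 and 0.875 CPM in the deletion livers and 0.123 and 0.687 CPM in the controls (1.13 ± 0.74, adjusted p = 0.411). It had 16 and 17 counts in the deletion libraries and 2 and 10 in the controls, with control replicate 1 under the floor of 3 counts.

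Of 10 temperature cue genes, which are heat shock genes and the cold-inducible Cirbp and Rbm3, 0 passed by edgeR. At an unadjusted p under 0.05 the count was 0, and by DESeq2 it was 0. Within groups they were split: 9 of 10 were higher in deletion replicate 1 than in deletion replicate 2. Only 1 of 10 was higher in control replicate 1 than in control replicate 2. Cirbp was the exception in both groups, with log2 gaps, replicate 1 minus replicate 2, of -0.96 in the deletion livers and 0.49 in the controls. The other cold-inducible gene, Rbm3, went with the heat shock genes, at 0.16 and -0.27. Hspa1b had 94.5 and 32.4 CPM in deletion replicates 1 and 2, against 19.7 and 57.5 CPM in control replicates 1 and 2. Hspa1a had 6.76 and 2.47 CPM in the deletion livers and 1.91 and 3.37 CPM in the controls; the pair are near-identical copies that can share reads. Of the tested members, Per1, Per2 and Cry1 had the same higher library in each group as Hspa1a and Hspa1b.

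Profiles most like those of Dbp and Arntl were ranked by Euclidean distance between centred log2 CPM over the 4 libraries. The 5 nearest to Dbp were Mgat3 (0.16), Flnc (0.27), Fut2 (0.39), 2810414N06Rik (0.52) and Erbb4 (0.53), which reached at most 5.24 CPM in any library. The 5 nearest to Arntl were Gm16348 (0.32), Itga2 (0.33), Zfp418 (0.34), Rps3a1 (0.35) and BB123696 (0.43). Nr1d1 ranked 105 for Dbp and Nfil3 ranked 81 for Arntl among all tested genes. With 4 libraries these distances are a description.

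Several features of the libraries ran along with the groups. Totals were 16270424 to 17800138 counts. Ube2n, the targeted gene, had 5.88 and 5.97 CPM in the deletion livers and 41.3 and 44.9 CPM in the controls (-2.86 ± 0.16, adjusted p = 0.00188). Xist had 9590 and 3896 counts in deletion replicates 1 and 2 and 9 and 2 in the controls. The 4 Y-linked genes summed to 0 and 1754 counts in deletion replicates 1 and 2 and to 2312 and 2209 in the controls. The groups thus also differ in sex-linked RNA, and so do the 2 deletion libraries. Deletion replicate 2 held both Xist and Y-linked RNA, while deletion replicate 1 held Xist and 0 Y-linked counts. In the fit with the male RNA covariate Hlf was at -0.72 and Ube2n at -2.82, neither of them called (Ube2n adjusted p = 0.0643), and 3 genes in all were called lower. The part of sex-linked RNA in these results was therefore not settled by that fit.

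The cell-type markers moved too, where edgeR called 4.41% of all genes higher and 2.16% lower. Of 12 hepatocyte markers 11 were found and tested, 2 of them fell and all 11 were negative. Their summed level was 81410 and 75840 CPM in the deletion livers and 181800 and 178800 CPM in the controls. Most of each sum came from Alb, which did not pass (edgeR adjusted p = 0.0612). Alb was at 45310 and 42890 CPM in the deletion livers and 119000 and 115000 CPM in the controls. Of 16 macrophage and leukocyte markers 14 were tested, 3 rose and 0 fell, and all 14 were positive. At an unadjusted p under 0.05, 11 were higher (14.0% of all genes). Their sums were 1297 and 1002 CPM in the deletion livers and 443 and 574 CPM in the controls. Cd74 was the largest part of the deletion sums, at 431 and 312 CPM, against 41.2 and 47.5 CPM in the controls. Of 7 cholangiocyte markers, all tested, 2 rose (Sox9 and Spp1), at sums of 1365 and 1963 CPM in the deletion livers and 123 and 76.3 CPM in the controls, with most of the sum from Spp1. The other cholangiocyte markers did not follow: 4 of the 7 were negative, the median log2 fold change was -0.77, and Krt19 had 2.91 and 3.96 CPM in the deletion livers and 39.2 and 3.23 CPM in the controls (-2.62, adjusted p = 0.182). Of 10 stellate and fibroblast markers (535 and 538 CPM in the deletion livers, 684 and 497 CPM in the controls) and 8 endothelial markers (273 and 261 CPM, against 303 and 342 CPM in the controls), 0 passed by edgeR. At an unadjusted p under 0.05, 2 stellate and 1 endothelial marker were lower (10.5% of all genes). DESeq2 called 0 and 1 of them lower (4.48% of all genes). The part of cell composition in these results was not tested, and in bulk liver fewer cells of a type and less RNA per cell cannot be told apart.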

How the data were processed

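Total RNA of 4 mouse liver samples was turned into QuantSeq 3' libraries, per the labels' protocols, which also speak of primary hepatocyte RNA while the tissue label is liver. Reads were aligned with Bowtie2, per the labels' protocols, to a build given as mm10 and GRCm38 in the submitters' processing notes; no source used here gives the counter, its strand setting or its annotation. The authors deposited raw counts per Ensembl gene (56953 genes, 4 columns, 0 other sample columns). A 3' count follows transcript number and not length.

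Symbols and coordinates came from GENCODE M21 (GRCm38), which matched 52029 rows; the others held 0.188% to 0.233% of a library's counts. The deletion livers were set against the controls in edgeR 4.0.16 (R 4.3.3; quasi-likelihood F test, both directions) after TMM scaling and filterByExpr (minimum count 10, total 15), with a call at a Benjamini-Hochberg adjusted p under 0.05 over 14600 genes. CPM values are TMM-scaled, log2 gaps between libraries use a prior count of 2, and counting intervals are exact at 95%. The script was tested on simulated data. Replicates were not 1 library deposited under 2 names (chi-square per degree of freedom 25.3 for deletion, 38.9 for control). P-values measure only the spread between these samples, which may be technical, and with 2 against 2 an exact permutation test cannot go below 0.333 and was not used.

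DESeq2 1.42.0, limma-voom (limma 3.58.1), a robust fit, other scalings, no filter, a replicate block, each library left out and a male RNA covariate (Y-linked CPM over the control mean) were alternatives. Members and lists (other clock, phase, output, cue and cell-type genes) were chosen with earlier results of these data known; lists are described by counts and medians. Named were all members, 7 fixed clock genes, genes of each list that passed, up to 8, the 2 with the largest change, and the 5 nearest profiles to Dbp and to Arntl. A pair of listed genes is not reported here and was taken out of the list counts and medians.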

Additional observations from a re-analysis of the deposited data

How the results depend on the processing

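Over all genes, 644 were called higher and 315 lower in the deletion livers. These counts were 1643 and 1125 without a filter, 1562 and 202 with library sizes alone, 993 and 654 with DESeq2, 264 and 126 with a replicate block, 62 and 3 with the male RNA covariate, and 243 to 1184 and 100 to 897 with 1 library left out. Of the members, 1 was called lower; the count was 3 without a filter, 0 with the replicate block, the male RNA covariate or library sizes alone, and 0 to 3 with 1 library left out. Higher calls were 0 to 2 with 1 library left out and 0 otherwise. The median of E-box and D-box-phase genes (-0.72) was -0.44 with library sizes alone, -0.46 with limma-voom, -0.46 with the replicate block, -0.93 with the male RNA covariate and -0.87 to -0.31 with 1 library left out. The cause of these moves was not tested.

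With 1 library left out, log2 fold changes that changed sign ranged over Arntl -0.62 to 2.35, Per1 -0.40 to 0.0889, Per2 -0.70 to 0.80, Cry1 -1.22 to 0.69, Dbp -2.27 to 0.62, Nfil3 -0.80 to 0.99, Clock -0.31 to 0.53, Nr1d1 -2.23 to 1.85, Bhlhe40 -0.0419 to 0.69, Hspa1a -0.10 to 1.36 and Hspa1b -0.27 to 1.68. Signs also changed under other settings, where no such value was called. Per1 was 0.16 and Nfil3 was 0.14 under library sizes alone. Nfil3 was 0.12 under limma-voom. Nfil3 was 0.0791 under the replicate block. Per2 was -1.48, Nfil3 was 0.15, Nr1d1 was 0.80, Bhlhe40 was -0.21, Hspa1a was -0.92 and Hspa1b was -1.09 under the male RNA covariate. Nfil3 was 0.0748 under the crossed replicate block.

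No shared animal or batch is labelled for equal replicate numbers, and the deviations of equal numbers correlated at -0.12. With the replicate block Hlf was at -0.81 (adjusted p = 0.083), and Cyp2b10 (0.0887) and Pck1 (0.0677) lost their calls. A crossed replicate block, chosen after seeing the data, gave 928 higher and 438 lower calls, with 1 member lower, Pck1 not called and a median of E-box and D-box-phase genes of -0.46. A fit with 2 libraries against 1 has no spread of its own in the lone group. With 2 libraries a group, a change that did not pass is not shown to be absent, and Npas2 and Bhlhe41 were too shallow to test.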
